A study of Mus musculus with 4 samples.

Results

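The CCR4-NOT complex, its adaptor BTG4 and their partners were followed through the 10 genes Btg4, Cnot1, Cnot2, Cnot3, Cnot6, Cnot6l, Cnot7, Cnot8, Zfp36l2 and Tut7. The genes were chosen by symbol, each had 1 row in the table of 27115 genes, and all 10 passed the filter on low counts that kept 16801 genes for testing. RNA was sequenced from mouse 2-cell embryos held in in vitro culture and collected on day 2. The control group was of WT genotype (2 libraries), and the other group carried the genotype label Trim75 OE (2 libraries), that is, overexpression of Trim75. Trim75 is a tripartite motif protein, a class that includes many E3 ubiquitin ligases. How Trim75 was overexpressed, and how many embryos went into a library, is not given in the sources used here. The titles of both control libraries carried the tag L2C, which the other titles lacked. The library codes in the titles began alike, but their later digits fell in a separate run for each group. A difference in handling and the genotype therefore cannot be told apart. Nothing in the labels says that replicates were separate embryo pools, and the p-values therefore reflect no more than the spread of these 4 libraries, part or all of which may be technical.

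A mouse oocyte stores large amounts of messenger RNA, and most of it is removed between meiotic maturation and the 2-cell stage, as the embryo's own genome becomes active. Removal starts with shortening of the poly(A) tail by CCR4-NOT, a large complex in which CNOT1 is the scaffold, CNOT2 and CNOT3 form a structural module on it, and 2 kinds of catalytic subunit cut the tail. One kind is CNOT7 or CNOT8 (the CAF1 type) and the other is CNOT6 or CNOT6L (the CCR4 type). BTG4, made in oocytes and early embryos, brings the complex to translated messenger RNAs, ZFP36L2 brings it to messenger RNAs with AU-rich elements, and TUT7 adds uridines to shortened tails.

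Several of these messengers are themselves stored in the oocyte, where the cytoplasmic polyadenylation element near the 3′ end is a known signal for tail lengthening during maturation. The last 100 bases of 1 annotated coding transcript per gene were searched on the sense strand for TTTTAT or TTTTAAT, the usual forms of that element. Cnot8 was left out because its annotated transcripts are marked as incomplete at the 3′ end. The motif was present in 4 of the other 9 members, against 3398 of 19144 protein-coding genes with a 3′ UTR at least that long (17.7%). The hexamer AATAAA was in the same window of 6 of the 9 members, against 63.8% of those genes. Of the 4 members with the motif, Cnot3 and Cnot7 also held this hexamer there, while Btg4 and Cnot1 did not. Motif and hexamer occurred together in 11.4% of those genes. The 4 windows of 30 bases are shown 5′ to 3′ on the sense strand because they are the sequences in which the members can be compared directly. The motif is in capitals.
Btg4: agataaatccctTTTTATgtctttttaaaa
Cnot1: aagatgtattgaTTTTATatatgtgagtac
Cnot3: atgaataaatagTTTTATatgacggctggc
Cnot7: tcttaaggtacaTTTTATatcaataaaaat
These windows come from the GENCODE transcripts (GRCm38, the assembly of mm10), at chr9:51119797-51119826 on the plus strand for Btg4, chr8:95719504-95719533 on the minus strand for Cnot1, chr7:3661079-3661108 on the plus strand for Cnot3 and chr8:40493038-40493067 on the minus strand for Cnot7. The motif ended 61, 65, 13 and 14 bases before the annotated transcript end in the same order. A match is a description of letters and not a shown site. The other 5 members lacked it in this window, and all 9 held at least 1 copy somewhere in the 3′ UTR. No share over all genes was taken for that last count. The 3′ UTRs of the 9 ran from 283 to 3690 bases, and neither this count nor the next was matched for that length. The AU-rich heptamer TATTTAT occurred in the 3′ UTR of 5 of the 9 members, with the most copies (3) in Zfp36l2, against 27.4% of the 19144 genes.

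Library totals ranged from 9965081 to 14599670 counted reads. Control replicate 2 was the deepest library but had the fewest detected genes, 19830, while control replicate 1 had 20467. Overexpressing replicate 1 had 21886 detected genes and overexpressing replicate 2 had 21665. Whether this gap in detection underlies the low or absent control reads of some genes below was not tested. Reads of Trim75 numbered 1773 and 1703 in control embryos against 12091 and 10537 in overexpressing embryos (log2 fold change 2.73 ± 0.28, SE), which is the direction of the labels. In edgeR's quasi-likelihood test with Benjamini-Hochberg adjustment, 0 of 16801 genes passed 0.05, while 1888 had an unadjusted p under 0.05 and DESeq2 called 885 of 16075 genes (5.51%). Oocyte markers summed to between 2428 and 3095 CPM and 2-cell markers to between 837 and 1487 CPM (6 of 6 and 6 of 7 markers with a read in every library). Cumulus and granulosa markers summed to between 0 and 12.8 CPM and 1 sperm marker reached at most 19.97 CPM, and 0 of either list had a read in all 4 libraries. Blood markers summed to between 7.61 and 15.1 CPM. CPM here means reads scaled to a common library size with TMM factors, and differences in CPM in bulk embryos cannot separate less RNA per cell from fewer contributing cells, nor stored RNA from RNA made by the embryo.

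Btg4 was the most abundant member by a wide margin and one of the most abundant transcripts of the whole embryo. Per length, it stood at 1720 and 2146 FPKM in control embryos, against 1704 and 2343 FPKM with Trim75 in excess (FPKM as deposited). Its FPKM rank among all genes was 17 and 12 in control embryos and 19 and 17 with Trim75 in excess. By raw reads it was the top gene of control replicate 2, with 80103 reads, and it took between 0.436% and 0.599% of all reads in the 4 libraries. Btg4 lies on chromosome 9 from 51060901 to 51119875 on the plus strand.

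The order of the other members by mean FPKM over the 4 libraries was Cnot7 (215), Cnot8 (127), Cnot2 (62.2), Cnot6l (40.8), Cnot6 (20.4), Zfp36l2 (7.83), Cnot1 (7.06), Tut7 (3.67) and Cnot3 (2.23). By deposited FPKM, the catalytic subunits of the CAF1 type thus stood above those of the CCR4 type in every library, and the scaffold Cnot1 stood among the lowest. The lowest Btg4 value lay above the highest Cnot7 value, the lowest Cnot8 value above the highest Cnot2 value, and the lowest Cnot1 value above the highest Tut7 value. The ranges of the other neighbours overlapped. Cnot7 exceeded Cnot8 in 4 of 4 libraries all the same, Cnot2 exceeded Cnot6l in 3 of 4, and Zfp36l2 exceeded Cnot1 in 2 of 4. The lengths that the FPKM values imply matched the total of all annotated exon bases within 0.007% for every member. That total can far exceed the coding transcript searched above. It was 10313 against 3170 bases for Cnot6l and 17169 against 8390 for Cnot1. For Cnot6 it was 6610 against 5736, and for Zfp36l2 both were 3530. The order between genes, and the share of each gene in a pair below, therefore depend on the length used. Comparisons of 1 gene between libraries do not.

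**Figure D1:**
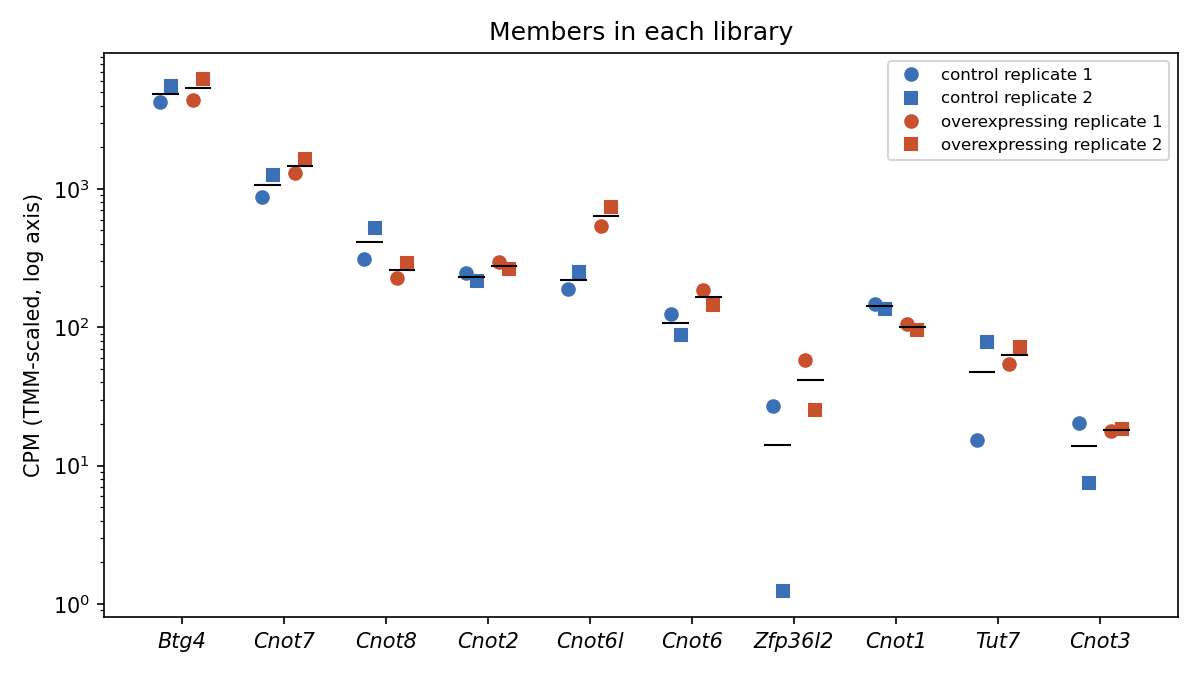
CPM of each member in each library (log axis), ordered by mean FPKM, with control libraries in blue and overexpressing libraries in red. Circles are replicate 1, squares are replicate 2 and black bars are group means. Cnot6l shows both overexpressing libraries above both control libraries with the widest gap between groups, while Zfp36l2 and Tut7 show the widest gaps between the control libraries.

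The comparison of overexpressing with control embryos asked whether the level of this machinery differs when Trim75 is in excess. Cnot6l, a catalytic subunit of the CCR4 type, had the largest log2 fold change for its fitted SE among the members. In edgeR, 0 of the 10 members passed the adjusted threshold (0 of all genes, 0% called). In DESeq2, 1 of 10 members passed, Cnot6l, against 5.51% of all genes (3.78% higher, 1.73% lower). With edgeR's unadjusted p under 0.05 there was again 1 of 10, also Cnot6l and higher, against 11.2% of all genes (7.71% higher, 3.53% lower), so the count of members is close to the background. Both overexpressing libraries lay above both control libraries in 4 members (24.0% of all genes) and below them in 2 (19.6%), or 6 of 10 without overlap against 43.6% of all genes. Fitted log2 fold changes were positive in 8 members, against 51.3% of all genes, and the median was 0.39, against 0.03 over all genes tested. That contrast changed with the libraries used. Without control replicate 1 the members' median was 0.30 and that of all genes 0.37, and without control replicate 2 they were 0.37 and 0.21. Without overexpressing replicate 1 they were 0.40 and -0.07, and without overexpressing replicate 2 they were 0.32 and -0.05. The filter kept more genes in these fits (19091 to 19838, against 16801), and a median over the same genes was not taken.

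Cnot6l measured 188 and 249 CPM in control embryos, against 541 and 738 CPM with Trim75 in excess. The lower overexpressing library was thus above the higher control library. Group means were 218 ± 43.3 and 639 ± 139 CPM (SD, n = 2), and the fit gave 1.55 ± 0.29 (SE) on the log2 scale, or 2.93-fold. In edgeR the unadjusted p was 0.0045, rank 71 among the genes tested, and the adjusted p was 0.32. In DESeq2 the adjusted p was 0.00067, and it was 0.21 without overexpressing replicate 2, with a log2 fold change of 1.31. Cnot6l lies on chromosome 5 from 96070333 to 96164171 on the minus strand.

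Cnot6, the close relative of Cnot6l on chromosome 11 (49671503 to 49712723, minus strand), was also higher in both overexpressing libraries but did not pass in either tool. It measured 125 and 87.9 CPM in control embryos and 185 and 145 CPM in overexpressing embryos. Its log2 fold change of 0.63 ± 0.32 (SE) came with an adjusted p of 0.61 in edgeR and 0.47 in DESeq2. It was 0.40 without control replicate 2 and 0.42 without overexpressing replicate 1. The best alignment of the Cnot6l and Cnot6 transcripts covered 1059 bases at 75.7% identity, far from the 90% taken here for a near-identical copy.

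Together the CCR4-type pair stood higher in overexpressing embryos. Cnot6l and Cnot6 summed to 38.6 and 37.4 FPKM in control embryos and to 79.2 and 89.4 FPKM with Trim75 in excess, and the groups did not overlap. Cnot6l made up 49.0% and 64.5% of that sum in control embryos and 65.2% and 76.6% in overexpressing embryos, so control replicate 2 and overexpressing replicate 1 were nearly alike. The log2 ratio of Cnot6l to Cnot6 within a library does not depend on scaling between libraries. It was 0.40 ± 0.65 in control and 1.31 ± 0.57 in overexpressing embryos (SD, n = 2), a difference of 0.91. That difference was 0.45 without control replicate 1, 1.36 without control replicate 2, 1.31 leaving out the first overexpressing library and 0.50 leaving out the second. It was not tested, since an exact permutation test of 2 against 2 libraries cannot give a two-sided p under 0.33.

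In the CAF1-type pair, Cnot7 had higher and Cnot8 lower values in overexpressing embryos. Cnot7 (chromosome 8, 40492540 to 40515847, minus strand) measured 879 and 1250 CPM in control embryos, against 1303 and 1635 CPM with Trim75 in excess. Both overexpressing libraries were higher, the first of them by little. The log2 fold change was 0.47 ± 0.27 (SE), with an adjusted p of 0.67 in edgeR and 0.56 in DESeq2. It was 0.22 without control replicate 1, 0.74 without control replicate 2 and 0.29 without overexpressing replicate 2.

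Cnot8 (chromosome 11, 58104153 to 58118594, plus strand) measured 309 and 520 CPM in control embryos, against 228 and 290 CPM with Trim75 in excess. Both overexpressing libraries were lower, and control replicate 2 stood well above the other 3. On the log2 scale the difference was -0.68 ± 0.34 (SE), with an adjusted p of 0.60 in edgeR and 0.40 in DESeq2. Control replicate 2 set its size: without that library the log2 fold change in edgeR was -0.26, with an adjusted p of 0.76. Without control replicate 1 it was -1.02 in edgeR, with an adjusted p of 0.27, and DESeq2 called it at -1.04, with an adjusted p of 0.041. A processed pseudogene on chromosome 8, Gm18860, matches the Cnot8 transcript at 97.8% identity over 760 bases and had 576 and 1781 reads in control and 766 and 671 in overexpressing libraries, so reads could have been split between the 2 rows. With both rows summed, the log2 fold change was -0.66 ± 0.35 (SE).

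The balance of the CAF1-type pair separated the groups of these 4 libraries more clearly than either gene. How often other pairs of genes do so was not counted, and 43.6% of single genes did not overlap between the groups. Cnot7 made up 56.3% and 52.1% of the summed FPKM of Cnot7 and Cnot8 in control embryos, against 72.2% and 71.9% with Trim75 in excess. Within each group the values lay within a few percentage points of each other. The log2 ratio of Cnot7 to Cnot8 was 0.24 ± 0.17 in control and 1.36 ± 0.01 in overexpressing embryos (SD, n = 2), so the ratio differed 2.18-fold. The difference of 1.12 on the log2 scale became 1.09 with the reads of Gm18860 added to those of Cnot8. The smallest exact two-sided permutation p is again 0.33. The sum of the pair did not separate the groups, at 279 and 411 FPKM in control and 306 and 374 FPKM in overexpressing libraries.

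**Figure D2:**
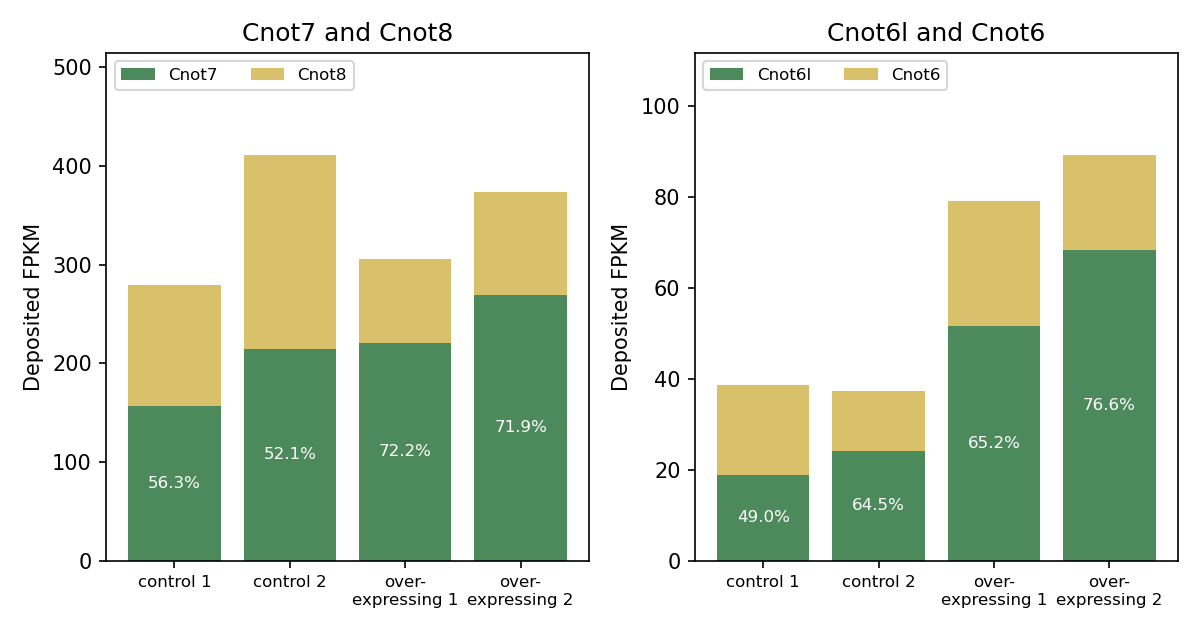
Deposited FPKM of the CAF1-type pair (left) and the CCR4-type pair (right) in each library, stacked from 0, with the percentage giving the share of Cnot7 or Cnot6l in the sum. The left bars show the Cnot7 share near 52.1% to 56.3% in control and 71.9% to 72.2% in overexpressing libraries at overlapping totals. The right bars show totals of 37.4 to 38.6 FPKM in control and 79.2 to 89.4 FPKM in overexpressing libraries.

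Of the scaffold and the structural module, Cnot1 was lower and Cnot2 higher without overlap, and Cnot3 gave no usable direction. Cnot1 (chromosome 8, 95719451 to 95807464, minus strand) measured 147 and 137 CPM in control embryos, against 105 and 96.0 CPM with Trim75 in excess. The replicates were close within each group and the groups did not overlap. The log2 fold change was -0.49 ± 0.25 (SE), with an adjusted p of 0.62 in edgeR and 0.54 in DESeq2. Gm6158, a processed pseudogene on chromosome 14, matches the Cnot1 transcript at 99.8% identity over 903 bases and had 903 and 1230 reads in control and 921 and 535 in overexpressing libraries. Summed with Gm6158, the log2 fold change of Cnot1 was -0.50 ± 0.24 (SE).

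Cnot2 (chromosome 10, 116485161 to 116581511, minus strand) measured 248 and 214 CPM in control embryos, against 297 and 262 CPM with Trim75 in excess. The gap between the groups was smaller than the gap between the replicates of either group. On the log2 scale the difference was 0.27 ± 0.23 (SE), with an adjusted p of 0.82 in edgeR and 0.80 in DESeq2. It was 0.17 without control replicate 2 and 0.15 without overexpressing replicate 1.

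Cnot3 (chromosome 7, 3645268 to 3661109, plus strand) measured 20.3 and 7.54 CPM in control embryos, against 17.6 and 18.3 CPM with Trim75 in excess, so the overexpressing values fell between the control values. Its log2 fold change of 0.37 ± 0.83 (SE) turned to -0.17 without control replicate 2 and was 1.24 without control replicate 1. The level of Cnot3 is also uncertain. Gm9207, a processed pseudogene on chromosome 3 that matches it at 98.8% identity over 1116 bases, had more reads in every library than Cnot3 itself. Gm9207 had 402 and 468 reads in control and 353 and 229 in overexpressing libraries, against 210, 110, 232 and 195 for Cnot3. Summed, the 2 rows gave a log2 fold change of -0.23 ± 0.44 (SE). In addition 433 exon bases of Cnot3 overlap Leng1 on the opposite strand, and the strand setting of the counting is not given in the labels or notes. The same holds for shorter overlaps of Cnot1, Cnot2, Cnot7 and Zfp36l2 and for 1299 exon bases of Tut7, all with genes on the opposite strand. On the same strand, 228 exon bases of Tut7 overlap Gm49354 and 86 of Cnot3 overlap Mir3572. The genes that share exon bases with Cnot7, Zfp36l2 or Tut7, and Mir3572, were not among the 27115 genes counted.

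The adaptor Btg4 showed no difference beyond its spread. It measured 4228 and 5492 CPM in control embryos, against 4422 and 6260 CPM with Trim75 in excess, and the groups overlapped. Its log2 fold change was 0.14 ± 0.27 (SE). Leaving out control replicate 1 made it -0.05, and leaving out overexpressing replicate 2 made it -0.14. The adjusted p was 0.96 in edgeR and 0.95 in DESeq2.

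Zfp36l2 and Tut7 were decided by a single control library each. Zfp36l2 (chromosome 17, 84183931 to 84187947, minus strand) measured 27.1 and 1.23 CPM in control embryos, against 58.0 and 25.1 CPM with Trim75 in excess. Control replicate 2 held 18 reads of it, against 281, 763 and 267 in the other libraries. Its log2 fold change of 1.55 ± 1.48 (SE) came with an adjusted p of 0.86 in edgeR and 0.67 in DESeq2. Without control replicate 2 it was 0.61 in edgeR, with an adjusted p of 0.76. Without control replicate 1 it was 5.05 in edgeR, with an adjusted p of 0.25, and 5.04 in DESeq2, with an adjusted p of 2.1e-05. Without overexpressing replicate 1 it was 0.81.

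Tut7 (chromosome 13, 59771561 to 59823147, minus strand) measured 15.3 and 78.8 CPM in control embryos, against 53.8 and 71.6 CPM with Trim75 in excess. Here control replicate 1 was the low library, with 159 reads against 1149, 707 and 762. The log2 fold change was 0.41 ± 0.85 (SE), with an adjusted p of 0.96 in edgeR and 0.94 in DESeq2. It turned to -0.34 without control replicate 1, and it became 2.04 in DESeq2 without control replicate 2, with an adjusted p of 0.0498.

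**Figure D3:**
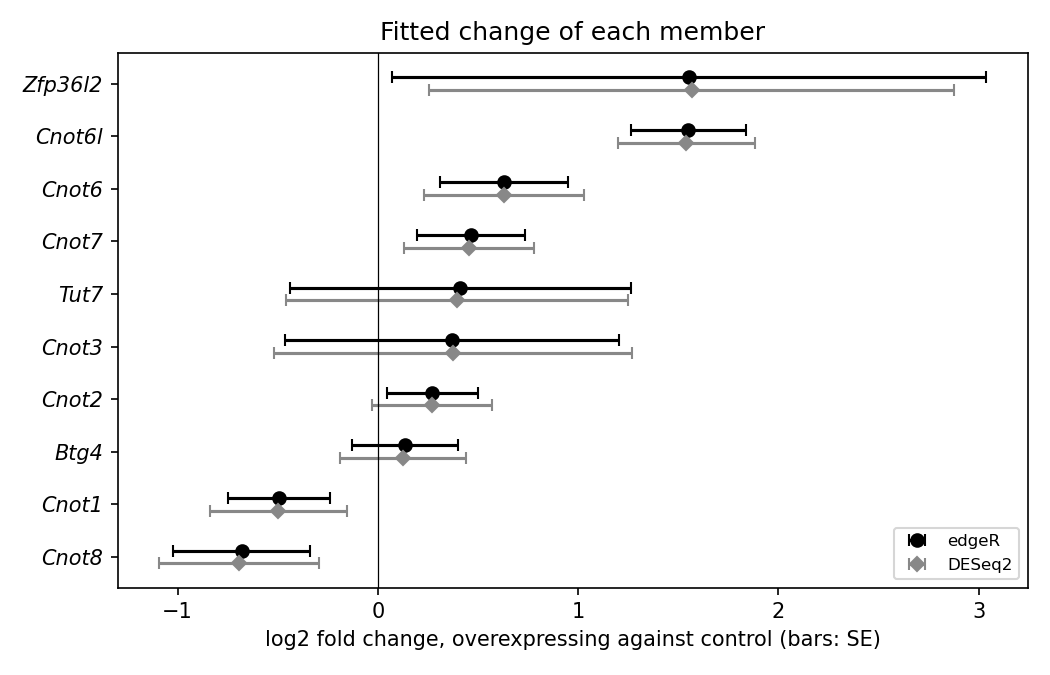
Log2 fold change of each member, overexpressing against control, from edgeR (black circles) and DESeq2 (grey diamonds), with bars giving 1 SE. Cnot6l lies farthest from 0 for its error, at 1.55 ± 0.29 in edgeR, and Zfp36l2 has the same fitted value with an error of 1.48.

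The members differed widely in how well their replicates matched. The control libraries differed 22.0-fold for Zfp36l2, 5.14-fold for Tut7 and 2.69-fold for Cnot3. These folds are plain ratios of CPM, while gaps were ranked among genes with a pseudocount of 0.5 CPM. Of the genes within 2-fold of the same mean CPM, 92.6% had a smaller gap than Zfp36l2 and 92.7% a smaller gap than Tut7, while the gap of Cnot3 was ordinary (58.3%). At the other end, the control libraries differed 1.08-fold for Cnot1, and 10.8% of genes of similar level had a smaller gap. The overexpressing libraries differed at most 2.31-fold in any member, for Zfp36l2, and only 1.04-fold for Cnot3. For Btg4 the control gap was 1.30-fold and the overexpressing gap 1.42-fold, with replicate 2 the higher in both groups.

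**Figure D4:**
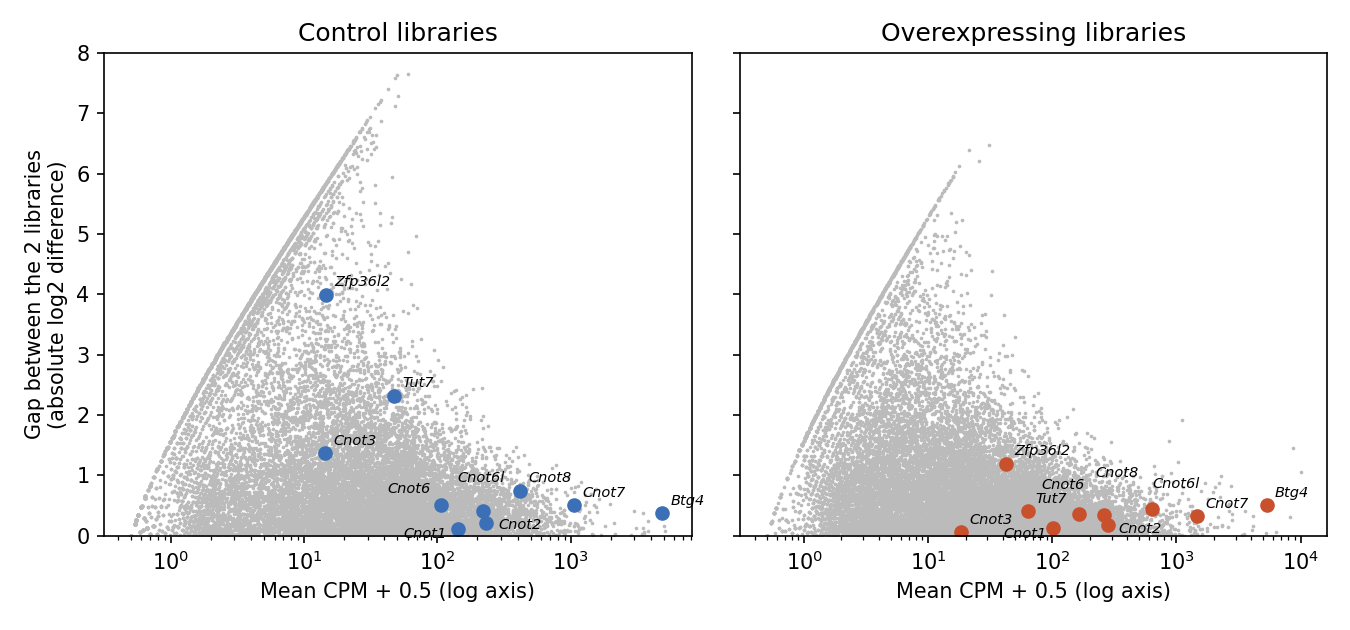
Absolute log2 difference between the 2 libraries of a group (pseudocount 0.5 CPM) against mean CPM (log axis), for the genes tested (grey) and the 10 members (coloured and named), in control (left) and overexpressing libraries (right). Zfp36l2 and Tut7 stand high in the control panel, at log2 gaps of 3.99 and 2.32, while the members' overexpressing gaps reach at most 1.19.

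Other genes of messenger RNA decay were described by lists of known members, counted on the same fit. Of 70 genes tested in 6 such lists, 40 had higher and 30 lower values in overexpressing embryos, and the median log2 fold change was 0.13, against 0.03 over all genes. In edgeR 0 passed, and 4 of 70 had an unadjusted p under 0.05, against 11.2% of all genes. DESeq2 called 1 of 68, against 5.51% of all genes, so neither count exceeded the background. Without overlap, 17 were higher and 9 lower (24.0% and 19.6% of all genes). The 4, named after their values were seen, were Tnks1bp1, Zfp36l1, Dis3l2 and Dcp2, all higher. Tnks1bp1 and Zfp36l1 had no control read and passed the filter on low counts through the overexpressing libraries alone. Their p-values therefore add no support. Of all genes tested, 533 of 16801 had no read in 1 of the groups, against these 2 of 70. The subunits and partners of CCR4-NOT outside the 10 members numbered 5, of which 3 were higher and 2 lower, with a median of 0.79 that did not change with Tnks1bp1 at its bound and was 0.29 with the filter at 5 CPM and 0.51 without control replicate 2. Cnot11, a subunit bound to the far end of the scaffold, measured 31.4 and 69.4 CPM in control and 78.8 and 104 CPM in overexpressing libraries. Cnot9, which binds recruiting proteins, measured 44.1 and 83.4 CPM and then 42.1 and 43.4 CPM. Cnot10 measured 104 and 18.4 CPM in control and 71.1 and 36.5 CPM in overexpressing libraries, and the groups overlapped.

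The relatives of BTG4 were far less abundant than Btg4, and 3 of 5 had lower values, with a median of -0.44 on the log2 scale, which was 0.44 when control replicate 2 was left out. Tob1 measured 189 and 189 CPM in control and 158 and 83.5 CPM in overexpressing libraries. Tob2 measured 468 and 295 CPM in control and 281 and 277 CPM in overexpressing libraries. Btg1 measured 28.9 and 91.8 CPM in control and 112 and 41.7 CPM in overexpressing libraries, and its groups overlapped. Tob1 and Tob2 encode antiproliferative proteins that bind the CAF1-type subunits, and neither passed in edgeR (adjusted p of 0.69 and 0.74).

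Among 14 tested recruiters of deadenylation, 8 were higher and 6 lower, and the median was 0.04, also with Zfp36l1 at its bound. It was -0.02 under scaling by total counts and 0.42 without control replicate 1, when the median of all genes was itself 0.37. Pabpn1l, the poly(A)-binding partner of BTG4 in oocytes, measured 25.8 and 114 CPM in control and 23.8 and 34.5 CPM in overexpressing libraries, with control replicate 2 far above the rest. Ythdf2, a reader of methylated adenosine, measured 301 and 318 CPM in control and 211 and 274 CPM in overexpressing libraries, lower without overlap but with an adjusted p of 0.76 in edgeR. Pum2, an RNA-binding repressor, overlapped between groups at 189 and 335 CPM against 345 and 209 CPM.

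Of 13 other deadenylases and poly(A)-binding proteins, 9 were higher and 4 lower, with a median of 0.31. That median was 0.18 without control replicate 2 and 0.01 without overexpressing replicate 2. Angel2, of the same nuclease superfamily as CNOT6, measured 1187 and 1555 CPM in control and 1293 and 1405 CPM in overexpressing libraries, a log2 fold change of -0.02 ± 0.22 (SE). Pan3, the regulatory subunit of the PAN2-PAN3 deadenylase, measured 470 and 400 CPM and then 438 and 577 CPM. Pabpc4 measured 137 and 201 CPM and then 122 and 178 CPM. None of these 3 separated the groups.

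The steps after deadenylation were as mixed. In uridylation and decay from the 3′ end, 9 of 18 were higher and 9 lower, with a median of -0.01. That median was 0.53 without control replicate 1 and between -0.14 and -0.05 without any of the other 3 libraries, and it was above 0 with upper quartile factors (0.01), the filter at 5 CPM (0.13), the replicate block (0.14), voom (0.21) and limma on FPKM (0.06 and 0.07). Exosc10, a nuclease of the nuclear exosome, measured 205 and 190 CPM in control and 150 and 159 CPM in overexpressing libraries, while Exosc3 and Dis3l overlapped between groups. In decapping and decay from the 5′ end, 9 of 15 were higher and 6 lower, with a median of 0.13. Leaving out any 1 library raised that median to between 0.29 and 0.47. Lsm14a, a component of messenger ribonucleoprotein granules, measured 875 and 897 CPM in control and 1085 and 1338 CPM in overexpressing libraries. Eif4enif1, which represses translation of stored messengers in oocytes, measured 424 and 263 CPM and then 504 and 666 CPM. Their adjusted p in edgeR was 0.54 and 0.53, and Lsm14b went the other way with overlap, at 323 and 209 CPM against 223 and 116 CPM.

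Stored oocyte transcripts, a list of known oocyte messengers, showed no common direction. Whether the genes of this list are targets of the machinery was not tested. Of 24 tested, 14 were higher and 10 lower, and the median log2 fold change was 0.10, which was 0.34 without overexpressing replicate 1, -0.12 without overexpressing replicate 2, 0.21 without control replicate 1 and 0.04 without control replicate 2. At an unadjusted p under 0.05 in edgeR there were 3 of 24 (Bmp15, Kit and, lower, Tle6), against 11.2% of all genes. DESeq2 called 2 of 24, against 5.51% of all genes, so both counts are near the background. Oosp1 measured 1462 and 1477 CPM in control and 1976 and 1725 CPM in overexpressing libraries. Dppa3 measured 1101 and 1167 CPM and then 844 and 1377 CPM, and Oas1d measured 967 and 702 CPM and then 776 and 666 CPM. The list genes that DESeq2 called, named like Tle6 after their values were seen, were Bmp15 and Kit here and Tnks1bp1 among the CCR4-NOT subunits. Bmp15, an oocyte growth factor, measured 291 and 265 CPM in control and 523 and 495 CPM in overexpressing libraries, with an adjusted p of 0.024 in DESeq2 and 0.32 in edgeR. Kit measured 1.16 and 9.67 CPM and then 82.7 and 36.6 CPM. Tnks1bp1 had 0 reads in each control library, against 18 and 113 with Trim75 in excess, at least 49.8-fold higher against a floor of 3 reads over the control group. That bound rests on overexpressing replicate 2 and is 11.4-fold without it.

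**Figure D5:**
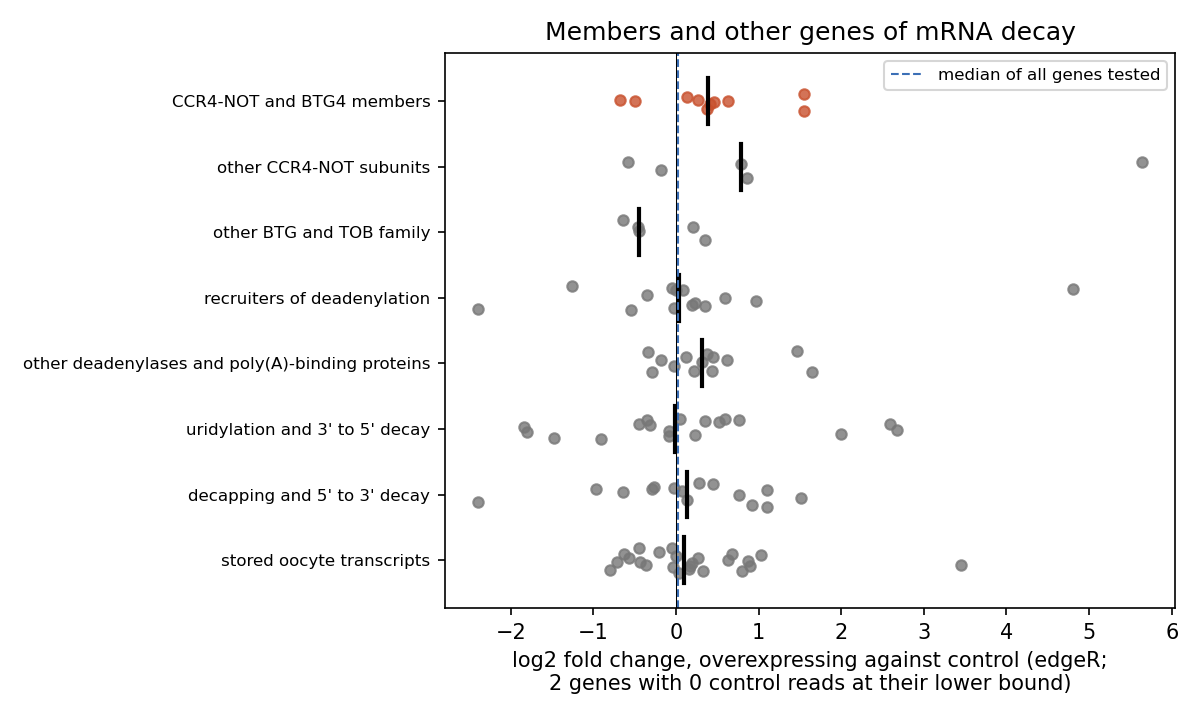
Log2 fold change (edgeR) of each tested member (red) and of the tested genes of each decay list and of the stored oocyte transcripts (grey). Black bars are at list medians and the dashed line is at the median of all genes tested (0.03). Tnks1bp1 and Zfp36l1, without reads in the control libraries, stand at their lower bounds. The median of the 10 members is 0.39, list medians run from -0.44 to 0.79, and every list holds genes on both sides of 0.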

How the data were processed

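Read counts and FPKM values per gene came from 1 table of 4 libraries (2 per group). Libraries were made with a transposase-based kit (TruePrep), per the labels' protocols. HISAT2 and featureCounts, after FastQC and Trim Galore, are named with mm10 per the submitters' processing notes. Neither their versions and annotation nor the handling of strand and multi-mapped reads is given in the sources used here. The deposited counts are raw whole numbers, per the file headers and values. The deposited FPKM values are counts divided by exon length and library total, per the file headers and values. Library totals were 9965081 to 14599670 reads. No molecular identifiers are described, so counting error is a lower limit.

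The main test used edgeR (4.0.16, R 4.3.3) with filterByExpr, TMM factors and glmQLFTest, with Benjamini-Hochberg adjustment over all genes and a threshold of 0.05. SE is the log2 fold change divided by the square root of F. Alternatives were other scalings and filters, the replicate block, each library left out, DESeq2 (1.42.0), and limma (3.58.1) on voom weights or log2(FPKM + 1) or log2(FPKM + 0.1). DESeq2 with each library left out, and pseudogene rows summed into members, were added after the data were seen. In counts simulated for 16801 genes of this comparison at the fitted spread, edgeR recovered 30% of 4-fold and 90% of 16-fold changes, with 6 false calls among 126. Every simulated gene had the spread fitted for its level, without scatter between genes of the same level. Changes were put only into genes above a minimum CPM. The real counts gave 0 calls, so these rates cannot be carried over to them. Copies were sought with blastn (2.17.0) at 90% identity over at least 100 bases. Positions and motifs came from GENCODE M21.

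All 10 members were named, and per list the genes past the threshold or, with none, the 3 with the highest mean FPKM. Other genes named were chosen after their values were seen. Members and lists were chosen with earlier results of these data known. The single-cell data that the design text mentions were not analysed here.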

Additional observations from a re-analysis of the deposited data

How the results depend on the processing

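Cnot1, Cnot2, Cnot6, Cnot6l, Cnot7, Cnot8 and Zfp36l2 kept the sign of their log2 fold change in all 15 alternatives. The others turned in 1 or 2 alternatives each, namely Btg4 (-0.05 without control replicate 1, -0.14 without overexpressing replicate 2; range -0.14 to 0.34 with 1 library left out), Tut7 (-0.34 without control replicate 1; range -0.34 to 2.03) and Cnot3 (-0.17 without control replicate 2, -0.23 with its pseudogene summed in). The causes were not tested, other than the added rows in the last case. DESeq2 moved the calls over all genes from 0 to 885, the calls among members from 0 to 1 and the adjusted p of Trim75 to 5.2e-14, at a log2 fold change of 2.73. Genes at an unadjusted p under 0.05 numbered 1888 (1295 higher, 593 lower). They numbered 1198 (680 higher) with the filter at 5 CPM, which tested 12530 genes. The lower genes numbered 395 with the replicate block, 1065 in DESeq2, 963 on log2(FPKM + 1) and 976 on log2(FPKM + 0.1). Leaving out 1 library gave 414 to 3129 such genes, 196 to 2257 of them higher and 218 to 872 lower, with 1 to 3 members. With DESeq2 it gave 0 to 3 members, the 0 without overexpressing replicate 2. In these fits the spread of the lone library is taken from the other group. Same-numbered libraries did not deviate together (r = 0.01 over genes), so the numbers were not taken as pairs, and the replicate block left Cnot6l at an adjusted p of 0.60 with 0 members called. The log2 ratio difference of Cnot7 to Cnot8 ranged from 1.00 to 1.24 with 1 library left out, and that of Cnot6l to Cnot6 from 0.45 to 1.36.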

Other observations

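The TTP family, whose proteins bind AU-rich elements and recruit CCR4-NOT, was uneven across the libraries. These values were picked after they were seen. Zfp36 had 391 reads in control replicate 1 and 5 in control replicate 2, against 167 and 257 in the overexpressing libraries. The same library was low for Zfp36l2, but such drops were not particular to this family. Angel1 had 200 and 0 reads in control replicates 1 and 2, and Tut4 had 148 and 4. Exosc7, with 1 and 553 reads, and Dcp1b, with 1 and 96, were low in control replicate 1 instead. Zfp36l1 had 0 reads in each control library, against 54 and 28 with Trim75 in excess. That is at least 28.0-fold higher against a floor of 3 reads over the control group, and 21.9-fold without overexpressing replicate 1. The adjusted p was 0.32 in edgeR and 0.14 in DESeq2. Zfp36l1 passed the filter on low counts only through the overexpressing libraries, and 533 of 16801 genes tested had no read in 1 of the groups. The best alignment of the Zfp36l2 and Zfp36l1 transcripts covered 230 bases at 87.4% identity.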
